A study of Mus musculus with 45 samples.

Results

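The glutathione S-transferases examined here were the 10 genes Gsta1, Gsta2, Gsta3, Gsta4, Gstm1, Gstm2, Gstm3, Gstm4, Gstp1 and Gstt1, taken by their symbols from the 24946 usable genes of the table. Levels are in TPM, which corrects for transcript length and adds up to the same total in every library, and all 10 genes passed the filter of 0.5 TPM on average. Gene expression had been measured by bulk RNA sequencing of whole liver lysate from wild-type (WT) mice in 45 libraries. Peak libraries followed 6 weeks on the Lieber-DeCarli liquid diet, either its control or its ethanol version. Early and late resolution libraries came 3 days and 2 weeks after a switch from the ethanol to the control version. The labels do not give the course of the control-labelled mice at those stages separately. With the female and male labels this gave 12 groups, 9 of them with 4 libraries. The groups of 3 were early ethanol female, late ethanol female and late ethanol male. A library such as peak control female 1 carries the name its labels give. Sequencing depth cannot be read from TPM, so the counting precision of single values is unknown. Whether replicates were separate animals is not in the labels, and the p-values reflect library-to-library spread that may be technical.

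Glutathione S-transferases join the tripeptide glutathione to electrophiles such as drug epoxides and lipid peroxidation products, after which the conjugates are exported and turned into mercapturates. The cytosolic enzymes are dimers grouped by sequence into classes, among them alpha (Gsta), mu (Gstm), pi (Gstp) and theta (Gstt), and hepatocytes are among the cells richest in them. Several alpha and mu genes are known as targets of NRF2, the transcription factor of the oxidant response, and of CAR, a nuclear receptor for drug-like compounds. Gstp1 is known for higher levels in male than in female mouse liver.

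The sex labels need to be read with care, because transcripts of the sex chromosomes split by diet label instead. Xist, a noncoding RNA made from the silenced X chromosome, was above Eif2s3y, a Y-linked translation factor gene, in 21 of 21 ethanol-labelled libraries. Eif2s3y was above Xist in 23 of 24 control-labelled libraries, the exception being late control female 1 with 39.5 TPM of Xist. In 22 of 45 libraries these transcripts went against the sex label. An effect of the diet label and one of the sex chromosomes therefore cannot be told apart. The sex label as given is at odds with these transcripts, but the files do not show whether the diet and sex labels were exchanged. A difference given by sex label could thus be one of diet, and the reverse. The words diet label and sex label, female-labelled and male-labelled and male-labelled are used for the labels alone. The liver label fitted its markers. Albumin (Alb) lay between 49422 and 170591 TPM, and none of the 12 hepatocyte markers was at 0 in all libraries.

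The genes lie in a few clusters (mm10, GENCODE M21). On chromosome 9, Gsta4 spans 78182774 to 78209349, Gsta1 78230656 to 78242684 and Gsta2 78331018 to 78355788. Chromosome 3 holds Gstm3 (107963696 to 107969283), Gstm2 (107981702 to 107986453), Gstm1 (108012255 to 108017973) and Gstm4 (108040408 to 108044894). Gsta3 is on chromosome 1 (21240589 to 21265661), Gstt1 on chromosome 10 (75783813 to 75798584) and Gstp1 on chromosome 19 (4035407 to 4037985). All are protein-coding. Some have near-identical copies. Of the 50-base stretches in the longest coding transcript, 89.7% were shared with another gene for Gsta1, 64.2% for Gsta2, 62.3% for Gstp1 (all with Gstp2), 28.8% for Gstm3, 23.1% for Gstm1 and 9.4% for Gstm2. None were shared for Gsta3, Gsta4, Gstm4 and Gstt1. The division of reads between Gsta1, Gsta2 and Gm3776, and between Gstp1 and Gstp2, is thus uncertain, and sums over these copies are given beside the results.

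RefSeq promoters (GRCm38.p6) were found for 9 of the 10 genes. Those of Gsta1 and Gsta2 are shown because they are near copies and both were lower in male-labelled peak libraries, and that of Gstp1 because it moved differently from the others. Each is the 250 bases before the RefSeq start, 5′ to 3′ on the strand of the gene. For these genes that start differs from the end of the GENCODE span given above. The Gsta2 window lies inside the Gsta2 span, and the windows of Gsta1 and Gstp1 reach into theirs. The GCGTG marked in Gstp1 lies within the Gstp1 span. Capitals in Gsta1 and Gsta2 mark the longest run that both share, 29 bases that begin 118 bases before the start of Gsta1 and 121 before that of Gsta2. In Gstp1 they mark a TGANTCA match (an AP-1 site) and a GCGTG match (the core of the xenobiotic response element bound by the aryl hydrocarbon receptor).
Gsta1, chr9:78230419-78230668, plus strand: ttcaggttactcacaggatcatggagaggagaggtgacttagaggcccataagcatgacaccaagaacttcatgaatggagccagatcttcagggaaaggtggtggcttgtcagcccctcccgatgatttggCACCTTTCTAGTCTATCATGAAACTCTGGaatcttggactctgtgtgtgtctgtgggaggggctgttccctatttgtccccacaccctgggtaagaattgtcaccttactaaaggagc
Gsta2, chr9:78347146-78347395, minus strand: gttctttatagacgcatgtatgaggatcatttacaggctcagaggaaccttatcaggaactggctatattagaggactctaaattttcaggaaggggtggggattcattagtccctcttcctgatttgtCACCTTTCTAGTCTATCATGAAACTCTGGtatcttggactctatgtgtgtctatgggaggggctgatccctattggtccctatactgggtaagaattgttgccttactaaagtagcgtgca
Gstp1, chr19:4037913-4038162, minus strand: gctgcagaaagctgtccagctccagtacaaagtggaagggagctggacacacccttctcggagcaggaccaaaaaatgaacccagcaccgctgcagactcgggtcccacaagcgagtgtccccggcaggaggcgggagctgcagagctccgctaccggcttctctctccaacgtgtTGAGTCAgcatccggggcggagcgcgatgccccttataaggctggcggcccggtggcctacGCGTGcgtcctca

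Gsta3 and Gstm1 are shown for their motif matches. Capitals in Gsta3 mark a TGACNNNGC match, the core of the antioxidant response element bound by NRF2, and in Gstm1 a GCGTG match.
Gsta3, chr1:21240335-21240584, plus strand: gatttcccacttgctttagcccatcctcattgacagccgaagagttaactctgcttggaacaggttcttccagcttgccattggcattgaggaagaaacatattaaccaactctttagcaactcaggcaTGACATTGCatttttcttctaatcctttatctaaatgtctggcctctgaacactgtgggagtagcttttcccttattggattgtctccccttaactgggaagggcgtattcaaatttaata
Gstm1, chr3:108017974-108018223, minus strand: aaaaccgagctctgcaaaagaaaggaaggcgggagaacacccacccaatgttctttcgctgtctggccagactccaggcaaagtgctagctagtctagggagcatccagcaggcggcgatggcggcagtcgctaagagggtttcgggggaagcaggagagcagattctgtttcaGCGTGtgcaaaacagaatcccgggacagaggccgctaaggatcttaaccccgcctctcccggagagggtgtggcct

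Both strands of each promoter were searched, and no matches to different motifs overlapped. TGACNNNGC was in 1 of the 9 promoters and in 10.2% of the 32851 mouse promoter windows of this length. GCGTG was in 3 of 9 (Gsta2, Gstm1 and Gstp1) and in 28.2% of all windows. TGANTCA was in 1 of 9 and in 6.75% of all. A match describes letters in the window and is not evidence of a bound site.

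Across all 45 libraries the transcript levels spread over a wide range. Gstm1, the most abundant mu-class transcript, had 2212 ± 1716 TPM (SD, n = 45). Gstp1 followed with 1581 ± 1344 TPM and Gsta3, the most abundant alpha-class transcript, with 1388 ± 376 TPM. These 3 means differed by less than the SD of Gstm1 or of Gstp1, but Gstm1 stood above Gsta3 by more than the SD of Gsta3. Gstt1 came next with 516 ± 150 TPM, below Gsta3 by more than the SD of either. Gsta4, whose enzyme acts on the lipid aldehyde 4-hydroxynonenal, had 103 ± 70.1 TPM, close to Gstm2 with 102 ± 38.9 TPM, Gstm3 with 94.1 ± 133 TPM and Gstm4 with 59.3 ± 30.3 TPM. The lowest were Gsta2 with 36.6 ± 54.4 TPM and Gsta1 with 6.95 ± 16.6 TPM. The order turned with the diet label, since Gstp1 was the most abundant of the 10 in 5 of the 6 control-labelled groups and Gstm1 in peak control female and all 6 ethanol-labelled groups. From Gsta4 to Gsta1, neighbours in this order did not differ by more than the larger of their SDs, which include the differences between groups. Within libraries Gsta2 nevertheless stood above Gsta1 throughout.

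Over the 12 groups, ordered by their mean on the log2(TPM + 0.5) scale, the highest group for Gsta1, Gsta3, Gstm1, Gstm3, Gstm4 and Gstp1 was peak control female and that for Gsta2 and Gsta4 was peak ethanol female. Gstm3 ran from 33.1 ± 11.3 TPM in early control female to 365 ± 318 TPM in peak control female libraries (SD, n = 4 each). Gsta4 ran from 48.2 ± 23.4 TPM in early control male to 247 ± 71.3 TPM in peak ethanol female libraries, and Gstm4 from 33.5 ± 10 TPM in peak ethanol male to 132 ± 48.9 TPM in peak control female libraries (SD, n = 4 each). Gstm2 and Gstt1 had another highest group, early ethanol male. Their lowest group, early control female, was also the lowest for Gsta2, Gstm1 and Gstm3. Gstm2 went from 50.1 ± 15.0 to 147 ± 6.50 TPM and Gstt1 from 375 ± 119 to 702 ± 97.2 TPM between these groups (SD, n = 4 each). Gsta3 ran from 1066 ± 393 TPM (SD, n = 3) in early ethanol female to 2037 ± 363 TPM (SD, n = 4) in peak control female libraries.

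**Figure D1:**
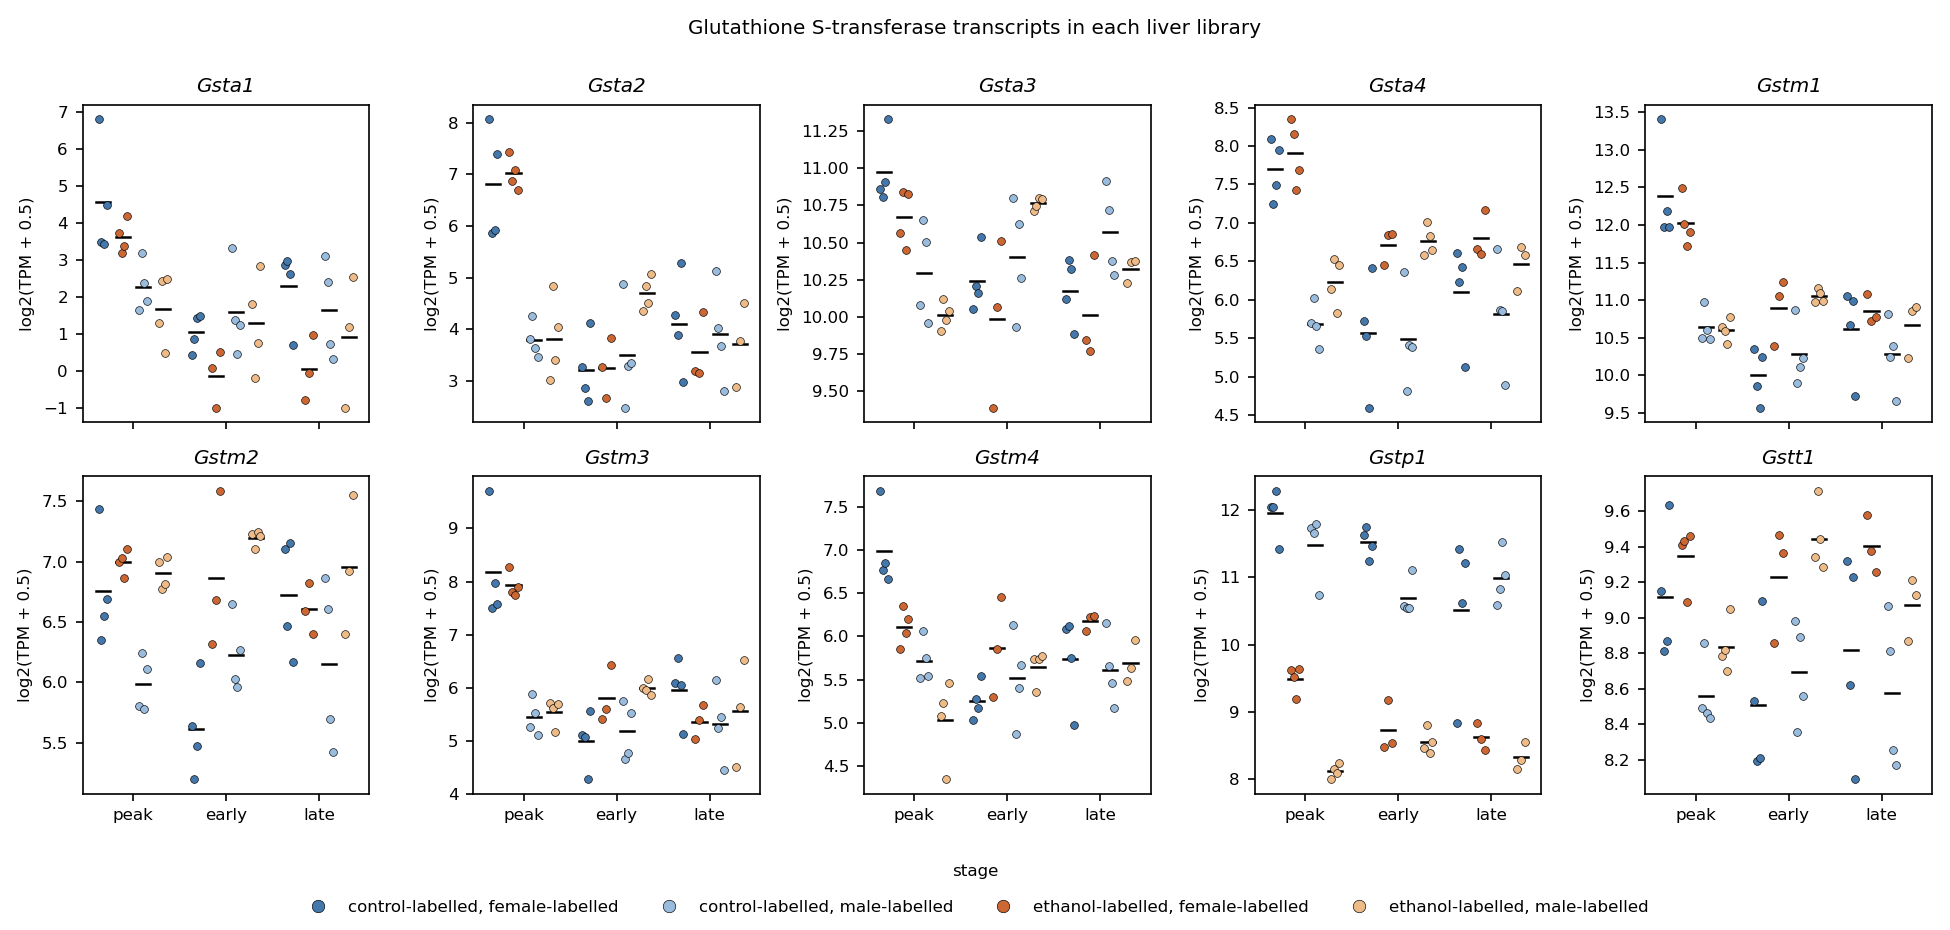
Level of each of the 10 genes, log2(TPM + 0.5), in each of 45 liver libraries (points) with group means (bars), ordered by stage and coloured by diet and sex label. Female-labelled peak libraries sit highest for Gsta2, Gsta4, Gstm1 and Gstm3, and control-labelled libraries sit highest for Gstp1 at each stage.

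Summed over the 10 genes, peak control female libraries held 13550 ± 3991 TPM (SD, n = 4), or 1.36% of all transcripts. Peak ethanol female libraries held 8127 ± 1283 TPM, peak control male libraries 6473 ± 1285 TPM and peak ethanol male libraries 3630 ± 283 TPM (SD, n = 4 each). After peak the group means ran from 4152 to 5797 TPM. The Gstp1 share followed the diet label. Gstp1 made up 31.0% of the sum in peak control female and 45.3% in peak control male libraries, against 8.96% and 7.66% in the ethanol-labelled groups. Gstm1 made up 41.4% in peak control female, 52.2% in peak ethanol female, 25.3% in peak control male and 43.1% in peak ethanol male libraries, so that its share differed by both labels. The level of Gstm1 itself was not called by the diet label at peak, with a log2 difference of -0.19 ± 0.20 (SE, limma adjusted p = 0.5). The shares of Gsta2 and Gstm3 were higher in the female-labelled groups, at 0.974% and 1.64% against 0.212% and 0.418% for Gsta2, and 2.41% and 3.04% against 0.677% and 1.28% for Gstm3.

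**Figure D2:**
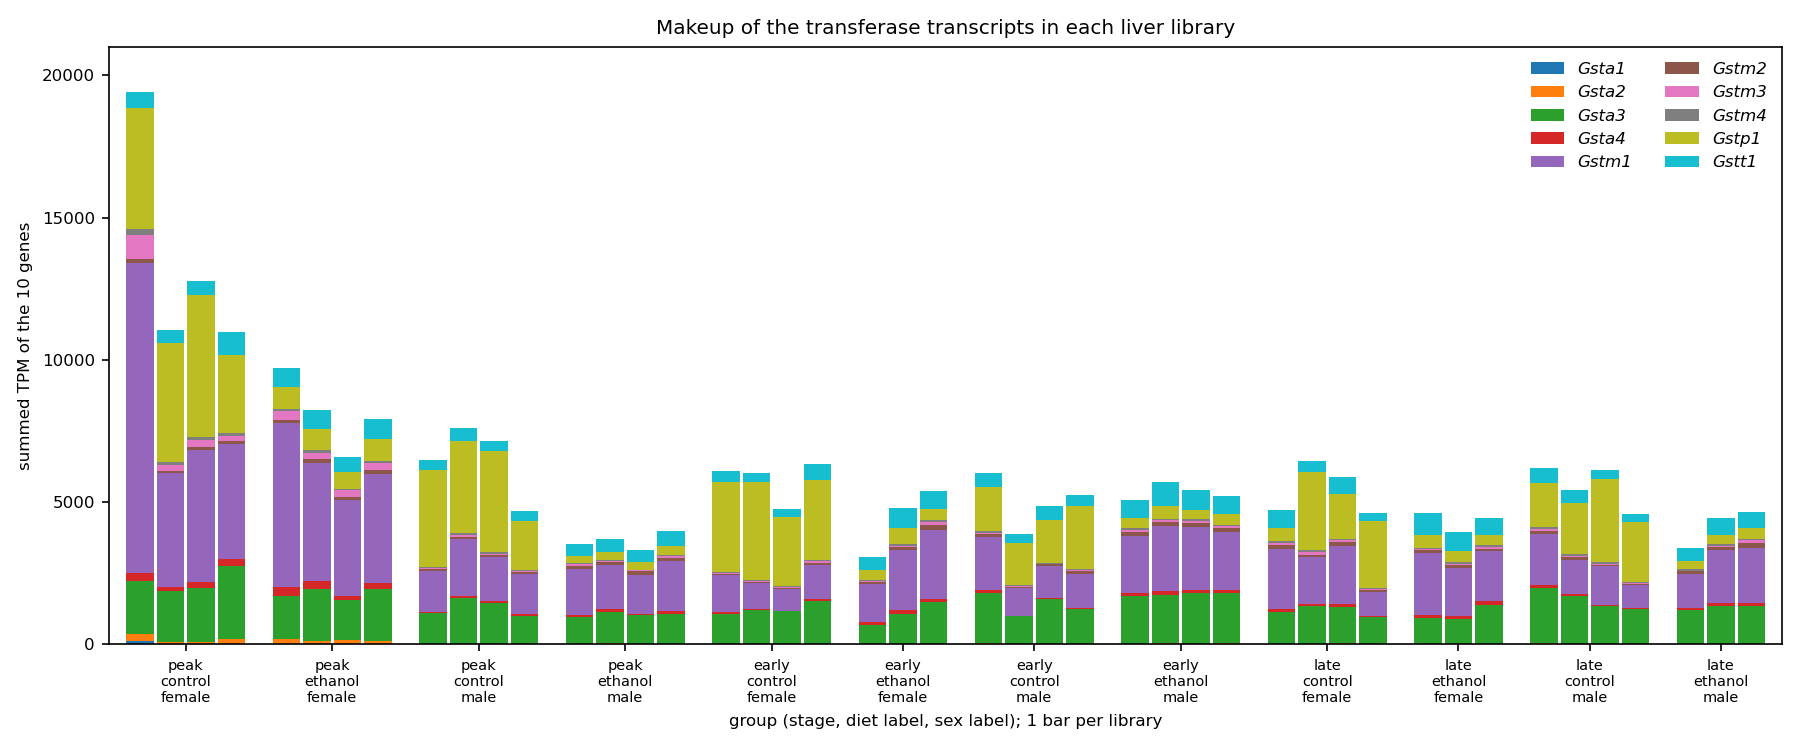
Summed TPM of the 10 genes in each library (1 bar each), stacked by gene and ordered by group. Peak control female 1 is the tallest bar at 19409 TPM, and the Gstp1 segment is short in all ethanol-labelled groups and in late control female 1.

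Differences were tested with limma on log2(TPM + 0.5) over the 11244 genes that passed the filter, with 1 mean per group, and a gene is called at a Benjamini-Hochberg adjusted p under 0.05. Between the sex labels at peak, the median over all genes shifted downward in male-labelled libraries, to -0.29 on the log2 scale. Values after median-of-ratios scaling, which removes this shift, are therefore given as well. As whole liver was lysed, fewer cells of a type and less RNA per cell cannot be told apart.

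At peak, Gsta1, Gsta2, Gsta4, Gstm1, Gstm3 and Gstm4 were lower in male-labelled than in female-labelled libraries, with log2 differences from -3.11 to -1.18. Gsta3 differed by less, and Gstm2 was not called. As deposited, 9 of 10 genes were called lower and 0 higher, against a background of 46.7% of all genes called lower and 4.26% called higher. With median-of-ratios scaling 7 of 10 were lower and 0 higher, against 15.4% lower and 16.2% higher. The median difference of the 10 genes was -1.38 as deposited and -1.03 with that scaling. The share of called genes that were higher was 8.36% as deposited and 51.1% with that scaling.

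Gsta2, an alpha-class transferase, differed most. Its levels were 268, 57.6, 60.3 and 167 TPM in peak control female and 173, 117, 135 and 103 TPM in peak ethanol female libraries. They were 13.6, 18.6, 11.9 and 10.6 TPM in peak control male and 7.56, 27.9, 10.1 and 15.9 TPM in peak ethanol male libraries. All 8 female-labelled libraries stood above all 8 male-labelled ones, within each diet label and across them. The log2 difference was -3.11 ± 0.36 (SE, limma adjusted p = 2.7e-07, lower in 8 of 8 libraries) and -2.77 after scaling. Within the control-labelled libraries it was -3.02 and within the ethanol-labelled ones -3.20.

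Gstm3, a mu-class transferase, followed the same order. It had 839, 181, 249 and 190 TPM in peak control female and 309, 224, 214 and 239 TPM in peak ethanol female libraries. In peak control male it had 37.7, 58.3, 45.6 and 33.7 TPM, and in peak ethanol male libraries 51.8, 48.5, 35.2 and 51.0 TPM. The groups did not overlap, although peak control female 1 lay far above the other 3 of its group. The difference was -2.57 ± 0.28 (SE, limma adjusted p = 6.4e-08), or -2.22 after scaling, and -2.32 without peak control female 1.

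Gsta4 ranged over 151, 226 and 326 TPM (lowest, median, highest) in the 8 female-labelled and 40.7, 60.4 and 92.0 TPM in the 8 male-labelled peak libraries. Its difference was -1.84 ± 0.24 (SE, limma adjusted p = 1e-06), or -1.49 after scaling. Gstm1 ranged over 3364, 4088 and 10879 TPM in female-labelled and 1371, 1550 and 2008 TPM in male-labelled libraries, a difference of -1.59 ± 0.20 (SE, limma adjusted p = 6.3e-07) and -1.23 after scaling. Neither gene overlapped between the labels. These 4 of 10 genes did not overlap, against 4.05% of all genes.

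The other alpha and mu genes overlapped or nearly touched. Gsta1, the near copy of Gsta2, ranged over 8.56, 11.7 and 111 TPM in female-labelled and 0.895, 3.92 and 8.59 TPM in male-labelled libraries. Peak control male 2, at 8.59 TPM, reached into the female-labelled range. Its difference was -2.11 ± 0.53 (SE, limma adjusted p = 0.0016), and for the sum of Gsta1, Gsta2 and Gm3776 it was -3.01 ± 0.39 (SE, adjusted p = 1e-06). Gstm4 fell by 1.18 ± 0.19 (SE, adjusted p = 2e-05) and Gsta3 by 0.67 ± 0.14 (SE, adjusted p = 0.00029), or by 0.83 and 0.32 after scaling. Gstm2 did not pass, at -0.43 ± 0.20 (SE, adjusted p = 0.065).

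Gstp1 and Gstt1 were also called lower as deposited, with differences of -0.92 ± 0.22 (SE, adjusted p = 0.0011) and -0.53 ± 0.16 (SE, adjusted p = 0.0065). After median-of-ratios scaling these were -0.57 (adjusted p = 0.078) and -0.18 (adjusted p = 0.37), and the calls were lost. With quantile normalization they were -0.83 (adjusted p = 0.0037) and -0.40 (adjusted p = 0.013).

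**Figure D3:**
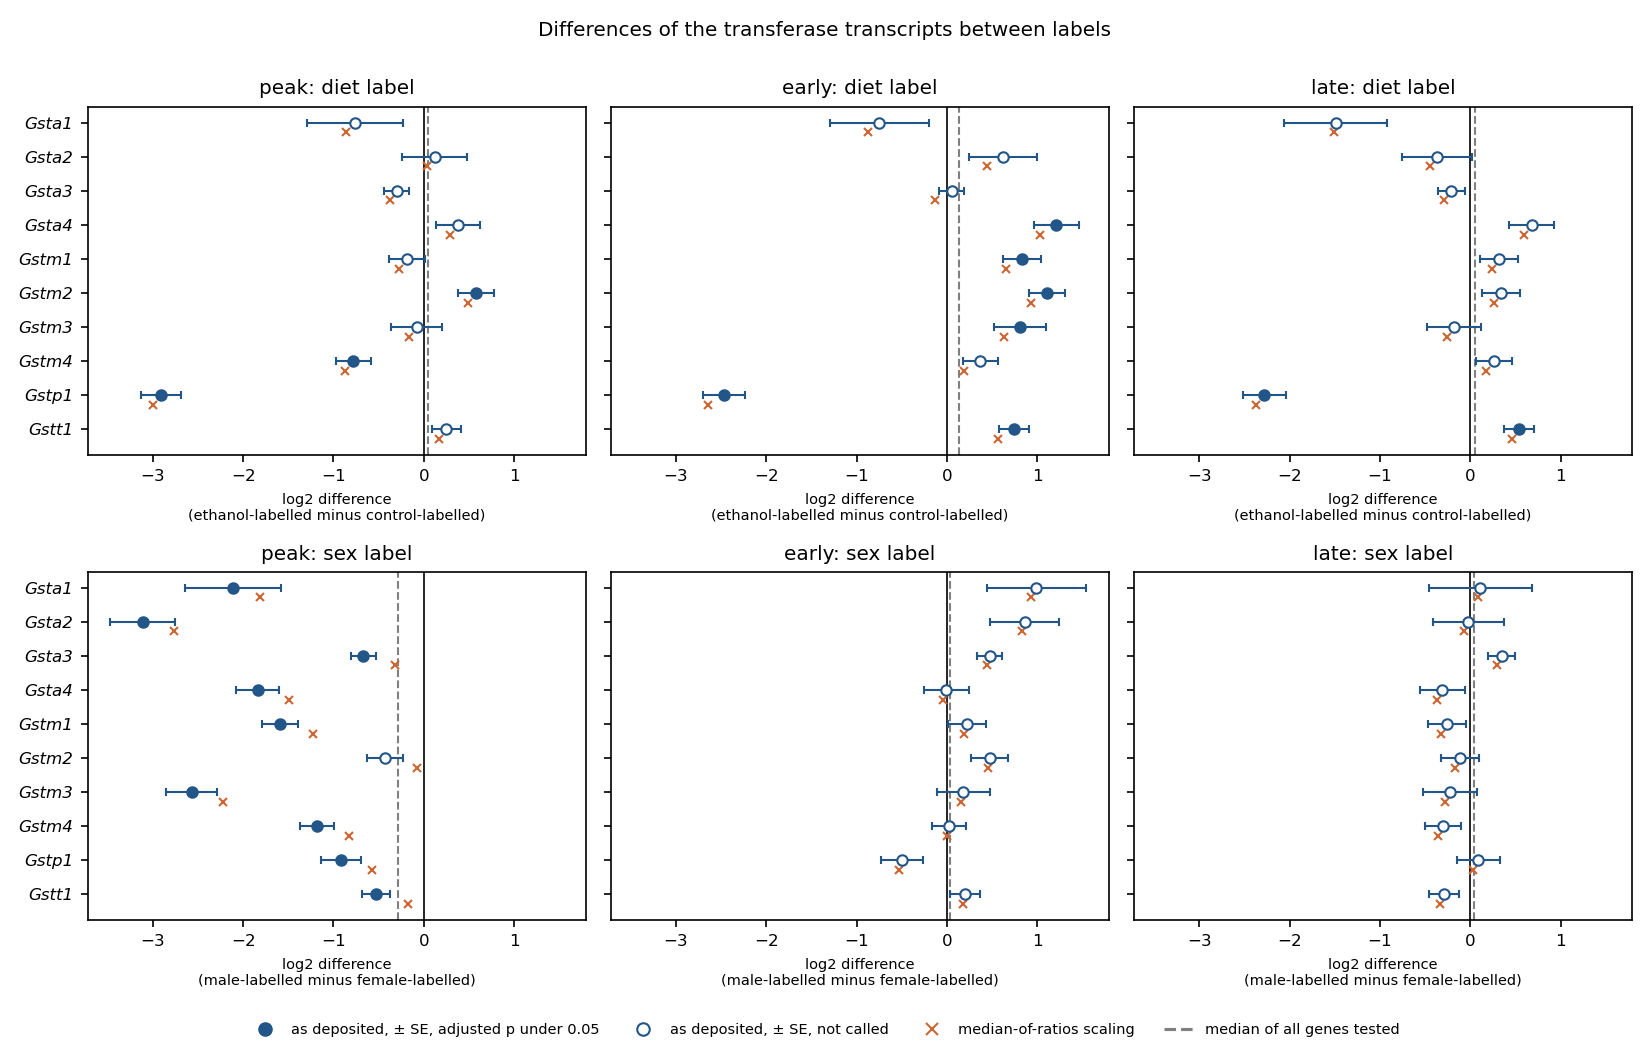
Log2 difference ± SE of each gene between diet labels (top row) and sex labels (bottom row) at the 3 stages, as deposited (circles, filled where the adjusted p was under 0.05) and with median-of-ratios scaling (crosses), with the median of all genes as a dashed line. The bottom left panel holds 9 filled circles to the left of 0, while Gstp1 stands apart to the left in each top panel.

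At early and late resolution the sex labels gave 0 called genes among the 10 (limma). At an unadjusted p under 0.05 there were 4 of the 10 at early resolution, which were Gstp1, Gsta3, Gsta2 and Gstm2, and 1 at late resolution, Gsta3. Of the 11244 tested genes 1443 were under that threshold at early resolution, a smaller share than 4 of 10. At late resolution 2747 were, a larger share than 1 of 10. Of all genes, 0.374% were called higher and 0.222% lower at early resolution, and 2.46% higher and 0.783% lower at late resolution. After scaling Gsta3 was higher in early male-labelled libraries by 0.44 (adjusted p = 0.027). None of the 10 genes separated the sex labels, against 0.0889% of all genes at early and 0.249% at late resolution. Gsta2, for example, had 9.61 ± 4.27 TPM (SD, n = 7) in early female-labelled and 19.6 ± 10.5 TPM (SD, n = 8) in early male-labelled libraries.

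The change in the sex label difference between stages was itself tested. From peak to early resolution it was called in 9 of 10 genes, against 31.9% of all genes, and after scaling in 7 of 10, against 16.5%. From peak to late resolution it was called in 8 of 10 against 36.5%, and after scaling in 5 of 10 against 20.2%. The median of all genes moved by 0.32 and 0.34, and the share of called genes with a positive change was 92.8% and 94.8% as deposited, or 55.5% and 56.1% after scaling. These comparisons share the peak libraries. Gsta2 changed by 3.97 ± 0.52 (SE, limma adjusted p = 6.5e-06) to early and 3.09 ± 0.53 (SE, adjusted p = 0.00035) to late resolution. Gstm3 changed by 2.75 ± 0.40 and 2.35 ± 0.41 (SE, adjusted p = 3.2e-05 and 0.00035). From early to late resolution 0 of the 10 genes and 0% of all genes were called (limma), with 1 and 530 at an unadjusted p under 0.05.

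In plain levels, Gsta2 was 138 ± 100 TPM in peak control female libraries and 9.60 ± 5.08 TPM in early control female libraries (SD, n = 4 each). In peak ethanol female libraries it was 132 ± 30.3 TPM (SD, n = 4), against 9.62 ± 4.01 TPM (SD, n = 3) in early ethanol female libraries. Male-labelled groups ran from 13.3 to 25.9 TPM over the 3 stages. Gstm1 likewise was 5898 ± 3334 TPM in peak control female and 1050 ± 252 TPM in early control female libraries (SD, n = 4 each).

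Gstp1, the pi-class transferase, separated the diet labels at each stage. At peak it had 4236, 4211, 5000 and 2745 TPM in control female and 785, 732, 583 and 799 TPM in ethanol female libraries. It had 3390, 3236, 3550 and 1702 TPM in control male and 255, 283, 271 and 302 TPM in ethanol male libraries. The lowest control-labelled library thus stood above the highest ethanol-labelled one. The difference was -2.91 ± 0.22 (SE, limma adjusted p = 2.2e-12, lower in 8 of 8 libraries), -2.46 within female-labelled and -3.36 within male-labelled libraries.

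At early resolution the 8 control-labelled libraries ranged over 1486, 2316 and 3444 TPM of Gstp1 and the 7 ethanol-labelled ones over 335, 370 and 579 TPM. The difference was -2.47 ± 0.23 (SE, limma adjusted p = 2.3e-10), or -2.65 after scaling, where the median over all genes as deposited was 0.13. At late resolution the 8 control-labelled libraries ranged over 455, 1957 and 2936 TPM and the 6 ethanol-labelled ones over 283, 360 and 454 TPM, a difference of -2.28 ± 0.24 (SE, limma adjusted p = 5e-09). Gstp1 was thus lower in ethanol-labelled libraries at all 3 stages. The changes of its difference from peak, 0.44 ± 0.32 to early (SE, adjusted p = 0.47) and 0.63 ± 0.32 to late resolution (SE, adjusted p = 0.23), were not called. The sum of Gstp1 and Gstp2 gave -2.90, -2.46 and -2.28 at the 3 stages.

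The late control library closest to the ethanol-labelled ones was late control female 1, at 455 TPM, and it is also the control-labelled library with Xist above Eif2s3y. The other 7 late control libraries ran from 1543 to 2936 TPM. Over all 45 libraries, those with Eif2s3y above Xist had at least 1486 TPM of Gstp1 and those with Xist above Eif2s3y at most 799 TPM. Without late control female 1 the late difference was -2.56. Between ethanol female and control male libraries, whose sex transcripts match their labels, it was -1.99, -1.96 and -2.37 at the 3 stages. Between ethanol male and control female libraries, whose sex transcripts go against their labels, it was -3.83, -2.97 and -2.75, with late control female 1 left out. Both of these also differ in the sex label.

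**Figure D4:**
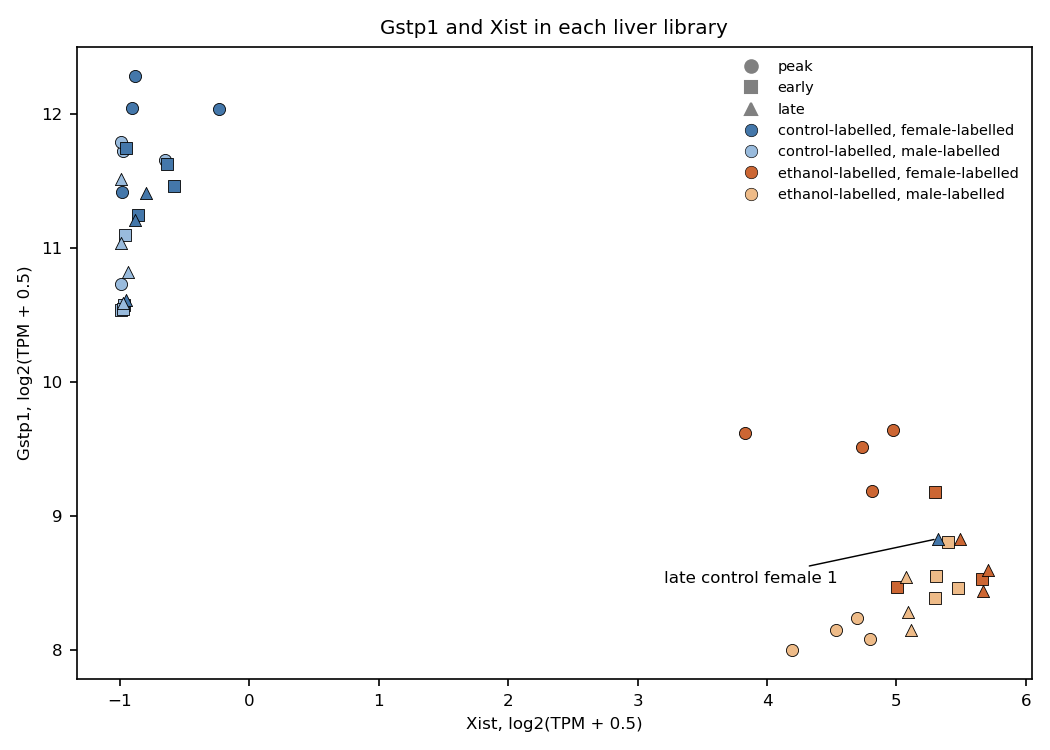
Gstp1 against Xist, both as log2(TPM + 0.5), in each of 45 liver libraries, with stage as shape and diet and sex label as colour. Libraries form a cluster low in Xist and high in Gstp1 and another high in Xist and low in Gstp1, and late control female 1 lies in the second.

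At peak the count of the 10 genes called by the diet label, Gstp1 among them, lay near the background. In all 1 was called higher and 2 lower, against 17.3% of all genes higher and 9.81% lower. After scaling 1 was higher and 3 lower, against 15% of all genes higher and 20.7% lower. Of all calls 63.8% were higher as deposited and 42.1% after scaling. Gstm4, a mu-class transferase, ranged over 45.4, 83.6 and 205 TPM in control-labelled and 19.9, 50.5 and 81.3 TPM in ethanol-labelled libraries, which overlap. It fell by 0.78 ± 0.19 (SE, limma adjusted p = 0.0019). Gstm2, another mu-class transferase, ranged over 54.5, 78.4 and 173 TPM in control-labelled and 109, 127 and 137 TPM in ethanol-labelled libraries. Its difference was 0.58 ± 0.20 (SE, limma adjusted p = 0.026), a call that ended at 0.51 to 0.55 without peak control female 2, peak control female 3, peak control male 1 or peak control male 3. After scaling Gsta3 was also lower, by -0.38 (adjusted p = 0.0044).

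Comparisons at peak that cross the labels combine the diet label difference with the sex label difference. They carry the latter by construction and do not test whether the diet label difference varied with the sex label. For Gsta2 the diet label difference was 0.12 ± 0.36 (SE, limma adjusted p = 0.84) over both sex labels. It was 0.21 within female-labelled and 0.03 within male-labelled libraries. The crossed values were 3.23 between ethanol female and control male and -2.99 between ethanol male and control female libraries. For Gstm3 these were 2.49 and -2.65, for Gsta4 2.22 and -1.46, and for Gstm1 1.39 and -1.78. At peak these genes thus ordered by the sex label and not by the sex chromosome transcripts. Gstm4 gave 0.40 and -1.96, and Gstm2 1.01 and 0.15.

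At early resolution 5 of 10 genes were called higher in ethanol-labelled libraries and 1 lower, against 14.3% and 2.46% of all genes. After scaling 4 were higher and 1 lower, against 7.62% and 9.12%. The share of called genes that were higher was 85.3% as deposited and 45.5% after scaling, and the median of the 10 genes was 0.68 as deposited and 0.50 after scaling.

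Gsta4 ranged over 23.7, 43.9 and 84.8 TPM in the 8 early control-labelled and 87.3, 113 and 128 TPM in the 7 early ethanol-labelled libraries, with no overlap. Its difference was 1.21 ± 0.25 (SE, limma adjusted p = 0.00062), and 1.03 after scaling. Gsta4 and Gstp1, 2 of 10 genes, separated the diet labels here, against 2.73% of all genes. At peak Gstp1 alone of the 10 did so, against 3.31%, and at late resolution again Gstp1, against 0.738%.

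Gstm2 ranged over 36.2, 63.3 and 100 TPM in early control-labelled and 79.5, 148 and 192 TPM in early ethanol-labelled libraries, a difference of 1.11 ± 0.20 (SE, limma adjusted p = 0.00018) and 0.93 after scaling. Gstm1 ranged over 761, 1159 and 1866 TPM against 1340, 2124 and 2422 TPM, which gave 0.83 ± 0.21 (SE, limma adjusted p = 0.0044) and 0.65 after scaling. Both overlapped between the labels but were higher in 7 of 7 ethanol-labelled libraries than the control mean of their sex label. Gstt1, the theta-class transferase that acts on small halogenated compounds, ranged over 292, 373 and 546 TPM against 464, 659 and 841 TPM, with 0.74 ± 0.17 (SE, limma adjusted p = 0.0018) and 0.56 after scaling.

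Gstm3 was near the threshold at early resolution, with 0.81 ± 0.29 (SE, limma adjusted p = 0.048) and 0.63 (adjusted p = 0.11) after scaling. It lost its call, at 0.66 to 0.87, in 12 of the 15 fits that left out 1 early library each. These were the fits without early control female 1, 2 or 3, early ethanol female 2 or 3, early control male 2, 3 or 4, or any early ethanol male library. Between ethanol female and control male libraries, which also differ in the sex label, Gsta4 (1.22) and Gstp1 were called at early resolution. Gstm2 was then 0.63 (adjusted p = 0.18), Gstm1 0.62 (adjusted p = 0.20) and Gstt1 0.53 (adjusted p = 0.16).

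At late resolution 1 of 10 genes was called higher and 1 lower, against 8.82% and 3.98% of all genes, and 68.9% of all calls were higher as deposited and 40.6% after scaling. Gstt1 ranged over 272, 421 and 639 TPM in control-labelled and 468, 604 and 766 TPM in ethanol-labelled libraries, a difference of 0.54 ± 0.17 (SE, limma adjusted p = 0.031). It lost its call, at 0.42 to 0.55, without any of late control female 2 or 4, late ethanol female 1 or 2, late control male 3 or 4, or late ethanol male 2 or 3. Without late control female 1 it was 0.63 (adjusted p = 0.0085), and Gsta4 was then called too, at 0.76 (adjusted p = 0.037) against 0.68 ± 0.25 (SE, adjusted p = 0.071) with it. Gsta1 was 4.44 ± 3.02 TPM (SD, n = 8) in late control-labelled and 1.5 ± 1.99 TPM (SD, n = 6) in late ethanol-labelled libraries, of which late ethanol male 1 is listed at 0. Its difference of -1.49 ± 0.57 (SE, adjusted p = 0.076) did not pass as deposited and did after scaling, at -1.51 (adjusted p = 0.045).

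The diet label difference of the 10 genes did not pass a test of interaction with the sex label at any stage. The counts were 0 of 10 by limma at peak, early and late resolution, against 0.16%, 0.00889% and 0.0445% of all genes. At an unadjusted p under 0.05 there was 1 gene of the 10 at each stage, Gstp1 at peak, Gsta3 at early and Gstm2 at late resolution. Of the 11244 tested genes 1491, 516 and 904 were under that threshold at peak, early and late resolution. The counts of 1 of 10 are thus not clearly above the background. For Gstp1 at peak the interaction was -0.90 ± 0.44 (SE, adjusted p = 0.37). In this comparison all genes had a median of -0.20 at peak and -0.14 at late resolution, and after scaling the counts among the 10 genes were again 0.

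Between stages, 1 diet label difference of the 10 genes changed. Gstm4 moved from -0.78 at peak to 0.26 ± 0.20 (SE) at late resolution, a change of 1.04 ± 0.27 (SE, limma adjusted p = 0.028). Here 1 of 10 genes was called, against 3.98% of all genes, and 26.8% of all calls were positive as deposited and 49.5% after scaling. The call was lost, at 0.92 to 1.07, without any of peak control female 1, peak control male 2, late control female 4, late ethanol female 1, late control male 3 or late ethanol male 3. From peak to early and from early to late resolution 0 of 10 and 0% of all genes were called (limma). At an unadjusted p under 0.05 there were 5 of the 10 and 1879 of all genes from peak to early, and 2 and 354 from early to late resolution. From peak to early resolution the change of Gstm4 was 1.15 ± 0.27 (SE, adjusted p = 0.12), and it was called after scaling, at 1.06 (adjusted p = 0.029).

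Other transferases and enzymes around glutathione were read from lists. Of 12 further cytosolic and mitochondrial transferases tested, 2 were higher and 1 lower by the diet label at peak, 6 and 1 at early and 4 and 1 at late resolution. Of all genes 17.3% and 9.81%, 14.3% and 2.46%, and 8.82% and 3.98% were higher and lower, so the peak count lies near the background. After scaling the counts were 3 and 2, 4 and 1, and 5 and 2, against 15% and 20.7%, 7.62% and 9.12%, and 8.56% and 12.5% of all genes. Gstp2, the neighbour of Gstp1, was lower, at -2.21 ± 0.28 at peak, -1.48 ± 0.29 at early and -1.74 ± 0.30 at late resolution (SE, adjusted p = 1.6e-07, 0.00041 and 0.0001). Gstp3, a further pi-class gene, went the other way, with 1.11 ± 0.21, 1.32 ± 0.22 and 1.40 ± 0.23 (SE, adjusted p = 0.00015, 4.2e-05 and 3.9e-05). At peak Gstp3 had 21.4 ± 6.38 TPM in control-labelled and 46.4 ± 11.3 TPM in ethanol-labelled libraries (SD, n = 8 each). By the sex label at peak 6 of the 12 were lower and 0 higher as deposited, with a median of -0.29, and 2 lower and 3 higher after scaling. Both lie near the shares of all genes, 46.7% lower as deposited, and 15.4% lower and 16.2% higher after scaling.

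Among 3 membrane-bound glutathione enzymes tested, Mgst1, a microsomal transferase, was lower in ethanol-labelled libraries, at -0.66 ± 0.09 at peak, -0.31 ± 0.10 at early and -0.56 ± 0.10 at late resolution (SE, adjusted p = 1.5e-06, 0.026 and 0.00022). Mgst3, its relative, was higher by 1.11 ± 0.26, 1.74 ± 0.27 and 1.61 ± 0.28 (SE, adjusted p = 0.0017, 1.6e-05 and 0.00013). Ltc4s, the third, differed by 0.54 ± 0.20, 0.31 ± 0.21 and 0.70 ± 0.22 (SE, limma adjusted p = 0.043, 0.35 and 0.029). By the sex label at peak, Mgst3 (-1.01 ± 0.26) and Ltc4s (-0.72 ± 0.20) were lower as deposited (SE, limma adjusted p = 0.0023 and 0.0045). Mgst1 was not called there, where 46.7% of all genes were called lower.

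Enzymes that make and recycle glutathione were lower in male-labelled peak libraries in 8 of 15 and higher in 1 as deposited, with a median of -0.34, and lower in 5 and higher in 4 after scaling. Of all genes 46.7% were lower as deposited, so that count lies near the background, while 15.4% were lower and 16.2% higher after scaling. Gclc, the catalytic subunit of the first and rate-limiting step, was 17.9 ± 5.73 TPM in female-labelled and 4.87 ± 1.45 TPM in male-labelled libraries (SD, n = 8 each), a difference of -1.76 ± 0.21 (SE, adjusted p = 4.7e-07). Gclm, its modifier subunit, differed by -1.03 ± 0.16 (SE, adjusted p = 1.4e-05). By the diet label 3 of 15 were higher and 1 lower at peak, 4 and 0 at early and 2 and 0 at late resolution, or 3 and 1, 2 and 1, and 2 and 1 after scaling, against the shares of all genes given for the further transferases.

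Of 14 genes of the NRF2 pathway tested, among them Gclc and Gclm, 10 were lower and 1 higher in male-labelled peak libraries, with a median of -0.82, and 9 lower and 1 higher after scaling. The background was 46.7% lower as deposited and 15.4% after scaling. Nqo1, a quinone reductase and standard NRF2 target, differed by -1.54 ± 0.21 and Ephx1, the microsomal epoxide hydrolase, by -1.38 ± 0.17 (SE, adjusted p = 2.6e-06 and 6.6e-07). Of 19 CAR and PXR genes 14 were lower and 0 higher, with a median of -0.92, and 11 lower and 1 higher after scaling, against the same background. Cyp2b10, a P450 that marks CAR activity, had 112 ± 59.7 TPM in female-labelled and 10.2 ± 11.5 TPM in male-labelled peak libraries (SD, n = 8 each), with -3.87 ± 0.51 (SE, adjusted p = 1.4e-06). Of 4 AHR genes 1 was higher and 2 were lower, and of 6 glutathione peroxidases 3 were lower as deposited and none after scaling, which as deposited is near the share of all genes.

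Of 12 genes that carry conjugates out of the cell or finish them, 4 were higher and 3 lower by the diet label at peak, against 17.3% and 9.81% of all genes. After scaling 4 were higher and 4 lower, against 15% and 20.7%. Nat8, the acetyltransferase of mercapturate formation, was lower, at -4.45 ± 0.35 (SE, adjusted p = 4.4e-12) and the efflux pump gene Abcg2 at -1.38 ± 0.15 (SE, adjusted p = 4.1e-09). Of known sex-biased liver genes, 14 of 14 female-biased ones were higher and 15 of 15 male-biased ones lower in ethanol-labelled libraries at each stage, as deposited and after scaling. Beyond the peak shares above, 14.3% of all genes were higher and 2.46% lower at early resolution (7.62% and 9.12% after scaling). At late resolution these were 8.82% and 3.98% (8.56% and 12.5% after scaling).

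Markers of other cells moved with both labels at peak. Of 12 endothelial markers 12 were higher in ethanol-labelled libraries (10 after scaling), against 17.3% of all genes (15% after scaling). In male-labelled ones 11 were lower (5 after scaling), against 46.7% (15.4%). Their summed level was 75.8 to 280 TPM in control-labelled, 114 to 379 TPM in ethanol-labelled, 136 to 379 TPM in female-labelled and 75.8 to 248 TPM in male-labelled libraries. Of 12 stellate cell markers 9 were higher in ethanol-labelled peak libraries (10 after scaling), with sums of 86.9 to 310 TPM in control-labelled and 206 to 516 TPM in ethanol-labelled libraries. At early resolution 10 of 12 macrophage markers were higher in ethanol-labelled libraries (6 after scaling), against 14.3% of all genes (7.62%), with sums of 179 to 590 TPM in control-labelled and 480 to 786 TPM in ethanol-labelled libraries. None of these markers was at 0 in all libraries. Of the hepatocyte markers 4 of 12 were higher and 1 lower in male-labelled peak libraries (7 and 1 after scaling). Of all genes 4.26% were higher and 46.7% lower there (16.2% and 15.4% after scaling). The sums of these markers ran from 167094 to 217936 TPM in female-labelled and 167691 to 240677 TPM in male-labelled libraries. By the diet label these sums did not overlap at peak, with 167094 to 191451 TPM in control-labelled and 195302 to 240677 TPM in ethanol-labelled libraries. At early resolution they were 133037 to 185954 and 181416 to 232848 TPM, and at late resolution 148775 to 220723 and 213712 to 243262 TPM. Of 15 pericentral hepatocyte markers 9 were lower and 0 higher by the sex label at peak (7 and 3 after scaling), and of 15 periportal ones 8 lower and 3 higher (4 and 4). As deposited, the lower counts of both lie near the 46.7% of all genes. After scaling the shares of all genes were 15.4% lower and 16.2% higher. The part of these cells and zones in the transferase differences was not tested.

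The 3 genes whose 12 group means spread most were Gsta1 (4.69 on the log2 scale), Gstp1 (3.83) and Gsta2 (3.81). Likeness was measured as the root mean square difference between centred group means, over 6194 genes averaging 5 TPM or more. The genes most like Gsta2 were Gstm3 at 0.38, the glucuronosyltransferase Ugt1a9 at 0.64, Gstm1 at 0.68, Cyp2c29 at 0.68 and Gsta1 at 0.69. Those most like Gsta1 were Gsta2 at 0.69, Gstm3 at 0.78, Cyp2c50 at 0.85, Akr1c19 at 0.87 and Cyp2c54 at 0.91. Those most like Gstp1 were Gstp2 at 0.44, the complement genes C9 at 0.52 and C8a at 0.57, Serpine2 at 0.57 and Arsa at 0.58. These values describe 12 group means and carry no test.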

How the data were processed

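RNA was isolated from liver lysate with a spin-column kit and sequencing libraries came from a stranded mRNA kit, per the labels' protocols. The genome build was mm10, per the submitters' processing notes. The aligner, the counter and the annotation were not given in the sources used here. A single table that the authors deposited holds TPM for 24972 genes and 45 libraries, each of which sums to between 999999 and 1000001. The 26 entries whose names had turned into dates (0.044% of TPM) were left out.

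After a log2(TPM + 0.5) transform, the 11244 genes averaging 0.5 TPM or more were fitted with limma 3.58.1 (R 4.3.3), with a variance trend and 1 mean for each of 12 groups (degrees of freedom: 33 residual, 3.8 prior). Benjamini-Hochberg adjustment ran over every tested gene, with calls at 0.05. Scaling that removes the median shift over genes used median-of-ratios factors. A library counts toward a direction when it is on that side of the other label's mean, taken within the same stage and remaining label. The fit was tested on simulated data. Same-numbered libraries deviated together in all 4 pairs only between the diet labels of peak female-labelled libraries (correlations of 0.109 to 0.222), and the fit had no replicate block.

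The 10 genes, the lists and the comparisons were chosen with earlier results of these data known. The change of the sex label difference between stages and the summed copies were added after these values had been seen. Named beside the 10 genes were up to 4 members of each glutathione, NRF2, CAR and PXR or AHR list with the smallest p in a comparison, Xist, Eif2s3y and Alb, and the 5 genes most like each of the 3 most variable genes. Shared sequence was counted in 50-base stretches, and promoter windows are the 250 bases before the RefSeq start. Alternatives were pseudocounts of 0.1 and 2, no filter or one of 5 TPM on average, quantile normalization, median-of-ratios scaling, libraries of the compared stages alone, the replicate block, libraries matching or not matching the sex label, and leaving out each library. Tables and figures used Python 3.11.15, pandas 2.3.3 and matplotlib 3.10.9.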

Additional observations from a re-analysis of the deposited data

Results flagged for a closer look

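Within groups of 4 libraries, 11 of 90 sets of values had a highest or lowest library that stood far from the others by Dixon's criterion, where chance gives about 1 in 20. Peak control female 1 was far above the others for Gsta1 (111 TPM), Gstm1 (10879 TPM), Gstm3 (839 TPM) and Gstm4 (205 TPM), and was the highest of its group for 7 of the 10 genes. Peak control female 4 was high for Gsta3 (2576 TPM). Peak ethanol female 3 was low (545 TPM) and peak control male 2 high (463 TPM) for Gstt1. Peak control male 4 was low for Gstp1 (1702 TPM). Early control male 1 was high for Gsta1 (9.47 TPM) and early control male 4 for Gstp1 (2198 TPM), and early ethanol male 2 was low for Gstm4 (40.5 TPM).

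Differences that changed between stages were called for 1 gene by the diet label and for 9 and 8 genes by the sex label. By the diet label, Gstm4 changed by 1.04 from peak to late resolution on the log2 scale. By the sex label from peak to early resolution, the changes were 3.10 for Gsta1, 3.97 for Gsta2, 1.14 for Gsta3, 1.83 for Gsta4, 1.80 for Gstm1, 0.90 for Gstm2, 2.75 for Gstm3, 1.2 for Gstm4 and 0.74 for Gstt1. From peak to late resolution they were 2.22 for Gsta1, 3.09 for Gsta2, 1.02 for Gsta3, 1.52 for Gsta4, 1.32 for Gstm1, 2.35 for Gstm3, 0.87 for Gstm4 and 1.01 for Gstp1. After median-of-ratios scaling the calls of Gstm2 and Gstt1 to early resolution and of Gsta1, Gstm4 and Gstp1 to late resolution were lost. Without early ethanol female 1 the changes of Gstm2 (0.77) and Gstt1 (0.64) lost their calls. That of Gsta1 to late resolution lost its call, at 1.82 to 2.02, without late control female 4, late ethanol female 1 or late ethanol male 3.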

How the results depend on the processing

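Of 1566 values recomputed for 53 results called under at least 1 setting, 1466 kept their direction and side of the threshold, 59 lost the call, 28 gained it and 13 changed sign. A further 97 differences of single genes were called under no setting, and 36 of them changed sign. The cause of these changes was not tested. Same-numbered libraries did not deviate together throughout: 7 of 21 pairs between diet labels (-0.371 to 0.25) and 6 of 22 between sex labels (-0.433 to 0.527) correlated over 0.1. Between diet labels all 4 pairs did among peak female-labelled libraries (0.109 to 0.222), as did 3 of 4 among early male-labelled ones (-0.05 to 0.25). Between sex labels 3 of 4 did among late control-labelled libraries (-0.148 to 0.367) and 2 of 3 among early ethanol-labelled ones (0.011 to 0.527). With a replicate block in the 8 peak female-labelled libraries alone, added after seeing the data, Gstp1 kept its call by the diet label (-2.46, limma adjusted p = 0.0037), and Gstm4 (-0.88) had an adjusted p of 0.14, against 0.037 without it. The fit with the replicate block at all stages gave 1 called gene of the 10 at late resolution by the diet label, with Gstt1 at 0.36, and 580 of all genes, and in that fit no other call among the 10 changed. For all genes by the sex label it gave 26 at early and 128 at late resolution. With only the libraries of the compared stages there was also 1 called gene by the diet label at late resolution, and with quantile normalization there were 4. Libraries matching the sex label gave 7 called genes by the diet label at peak, 2 at early and 4 at late resolution, and libraries not matching it gave 8 at peak and 1 at late resolution. Both sets also differ in the sex label, so these counts mix both label differences and do not describe the diet label alone. Signs reversed at peak with matching libraries for Gsta1 (1.35), Gsta3 (0.37), Gstm1 (1.39), Gstm3 (2.49) and Gstm4 (0.40). With libraries not matching they reversed for Gsta2 (-2.99), Gsta4 (-1.46) and Gstt1 (-0.28), and at late resolution for Gsta3 (0.13). Leaving out 1 library reversed Gsta2 (-0.05 to 0.33) and Gstm3 (-0.19 to 0.18) by the diet label at peak, the latter without peak control female 1. Leaving out 1 library each gave from 1 to 3 called genes by the diet label at late resolution, 0 to 1 by the sex label at early and late resolution, 0 to 2 for the change of the diet label difference from peak to early and 0 to 1 from peak to late resolution. Median-of-ratios scaling gave 1 by the sex label at early resolution, 1 for the diet label change from peak to early resolution (also 1 with quantile normalization) and 5 for the sex label change from peak to late resolution. Summed levels with that scaling were 4419 TPM in peak ethanol male, 4723 TPM in early ethanol male and 3968 TPM in late ethanol female libraries. Counts over all genes moved by more than 1.5 times in these cases. By the diet label at peak, 3049 became 1617 with a filter of 5 TPM. At early resolution 1880 became 1075 with that filter, 633 with libraries not matching and 1123 to 3019 without 1 library. At late resolution 1440 became 2374 with median-of-ratios scaling, 914 with the filter, 2423 with quantile normalization, 765 with the stage alone, 3232 with matching and 546 with not matching libraries. By the sex label at peak, 5729 became 3553, 3213 and 3356 with median-of-ratios scaling, the filter and quantile normalization. At early resolution 67 became 206 with median-of-ratios scaling, 243 with quantile normalization, 15 with the stage alone and 16 to 205 without 1 library. At late resolution 365 became 1074, 218, 1213 and 76 with scaling, the filter, quantile normalization and the stage alone, and 25 to 1853 without 1 library. For the interaction, 18 at peak became 48, 10, 37 and 31 in the same order and 4 to 134 without 1 library, and the counts of 1 at early and 5 at late resolution ran from 0 to 5 and from 0 to 13 over all settings. For the diet label change from peak to early resolution, 0 became 20 and 13 with median-of-ratios scaling and quantile normalization and up to 1073 without 1 library. From peak to late resolution 447 became 1348 with scaling, 290 with no filter, 279 with the filter, 1290 with quantile normalization and 95 to 1067 without 1 library. For the sex label change to early resolution, 3582 became 1850, 2174 and 1878 with scaling, the filter and quantile normalization and 1801 to 4783 without 1 library, and to late resolution 4105 became 2270, 2163 and 2027. From early to late resolution the counts of 0 stayed at 2 or fewer. Depth is unknown, so counting error could not be set against any of these values.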
